A study of Mus musculus with 14 samples.

Results

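The genes of the cell cycle were followed in mature colonic macrophages to see how strongly the programme of DNA copying and cell division was transcribed in each genotype. The members were 48 genes, taken by name from the 24982 genes of the count table, and all 48 were present. They were split by role into 22 S-phase genes, which license, start and carry out DNA replication, and 26 mitotic genes, which act in G2 and mitosis. The rule is a list of gene names and sets no threshold on a measured value. RNA was sequenced from sorted Ly6C- macrophages (live CD45+, Ly6G-, CD103-, CD64+, CD11b+, MHCII+ cells) of the colonic and cecal lamina propria of 5-week-old C57BL/6 mice. All groups carried *Cdcs1*, a locus that raises susceptibility to colitis. The groups were WT mice (*Cdcs1*, 5 libraries), IL10RAKO mice (*Cdcs1*, Il10ra -/-, 4 libraries), DKO mice (*Cdcs1*, Il10ra -/-, Ccr2 -/-, 4 libraries) and CCR2KO mice (*Cdcs1*, Ccr2 -/-, 1 library). The labels do not say how many mice stand behind a library, so p-values measure the spread between libraries. The deletions were present in the whole animal, not only in macrophages, and mice of both sexes were used in the study without the labels giving the sex of a library.

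A cell that commits to division passes from G1 into S phase when cyclin-dependent kinases inactivate the retinoblastoma family and free the E2F factors, which switch on the replication genes. The MCM helicase is loaded on DNA by CDC6 and CDT1 and is activated with CDC45 and the GINS complex. Later, the MuvB complex joins B-MYB (*Mybl2*) and FOXM1 to switch on the mitotic genes, whose transcription peaks in G2 and mitosis. In resting cells MuvB, together with E2F4 and p130 or p107, forms the DREAM complex that holds both gene groups down. Colonic macrophages of adult mice are largely replaced by incoming blood monocytes, which need CCR2 to leave the bone marrow, while macrophages of many other tissues renew themselves by division. CDK inhibitors such as p21 (*Cdkn1a*) and p27 (*Cdkn1b*) act as brakes on this programme.

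The promoters of the members differ between the 2 roles in sequence, and 5 are printed, for the genes that carry the mitotic results below and for a replication gene with E2F words. They were taken from RefSeq (GRCm38.p6) for 39 of the 48 members (19 S-phase and 20 mitotic), each from 250 bases before to 50 bases after the start site. The CHR, which MuvB binds through LIN54, was searched as TTTGAA, the E2F site as TTTGGCGC, TTTCGCGC, TTTCCCGC or TTTGCCGC, and the box bound by NF-Y as CCAAT, each on both strands. *Mcm7*, *Uhrf1* and *Prc1* had 2 promoters each, and a member counted once if any of its promoters held the word. The shares of all promoters count each promoter separately. The letters TTTGAA were found in 14 of 20 mitotic promoters and 2 of 19 S-phase promoters, against 17.9% of all 32851 promoters. An E2F word was found in 8 of 19 S-phase promoters (*Cdc6*, *Cdt1*, *Mcm3*, *Mcm5*, *Mcm6*, *Mcm7*, *Pola1* and *Uhrf1*) and in 1 of 20 mitotic promoters (*Cdk1*), against 2.26% of all promoters. CCAAT was present in 17 of 20 mitotic and 12 of 19 S-phase promoters, against 37.4% of all promoters. The stretches below run 5′ to 3′ on the strand of the gene and cover 150 bases that end 15 bases after the start site, and capitals mark the searched words on either strand. Within these windows the mitotic genes *Mki67*, *Cdk1* and *Kif23* hold TTTGAA, while the replication gene *Mcm6* holds E2F words, a pair of which overlap. The TTTGAA of *Bub1b* begins 41 bases from the start site inside the transcript and lies outside the printed stretch.
Mki67, chr7:135716365-135716514, minus strand: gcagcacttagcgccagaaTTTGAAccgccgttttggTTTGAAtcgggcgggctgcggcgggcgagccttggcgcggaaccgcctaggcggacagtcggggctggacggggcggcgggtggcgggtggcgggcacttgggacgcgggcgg
Cdk1, chr10:69352898-69353047, minus strand: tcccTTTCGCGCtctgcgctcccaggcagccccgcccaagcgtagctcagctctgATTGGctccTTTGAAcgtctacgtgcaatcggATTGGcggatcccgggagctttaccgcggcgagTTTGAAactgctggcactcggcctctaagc
Kif23, chr9:61946785-61946934, minus strand: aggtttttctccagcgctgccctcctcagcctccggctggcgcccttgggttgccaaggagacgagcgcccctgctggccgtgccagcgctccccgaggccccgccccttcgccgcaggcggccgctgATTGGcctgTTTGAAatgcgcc
Bub1b, chr2:118598076-118598225, plus strand: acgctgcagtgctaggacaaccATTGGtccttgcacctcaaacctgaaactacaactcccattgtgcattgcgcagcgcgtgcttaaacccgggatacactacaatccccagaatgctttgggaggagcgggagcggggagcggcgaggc
Mcm6, chr1:128359691-128359840, minus strand: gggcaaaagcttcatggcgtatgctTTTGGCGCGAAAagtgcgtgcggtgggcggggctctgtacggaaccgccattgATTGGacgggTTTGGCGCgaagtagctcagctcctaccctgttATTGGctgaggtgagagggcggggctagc

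Read counts per gene ranged from 12153000 to 21216468 in total per library. A level is a CPM, a read count scaled to library size with TMM factors, and 3 reads corresponded to 0.124 to 0.220 CPM. WT replicate 4 and the CCR2KO library are given as values only. The study's own normalised table holds neither, and no reason for leaving out WT replicate 4 was given in the sources used here. That library had a read on 11670 genes, against 13485 to 15450 in the 12 tested libraries, and 16 of the 48 members were at 0 reads in it. Genotypes were compared over 12 libraries (4 WT, 4 IL10RAKO and 4 DKO) with edgeR's quasi-likelihood test, with Benjamini-Hochberg adjustment of p over 13136 genes. Standard errors and 95% confidence intervals come from the same fit. The targeted genes matched the labels. *Il10ra* was 217 to 380 CPM in the tested WT libraries and 3.41 to 11.2 CPM in the IL10RAKO and DKO libraries. *Ccr2* was 361 to 702 CPM in WT and IL10RAKO mice and 3.92 to 6.68 CPM in DKO mice.

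Macrophage markers were abundant in every library. Their 9 genes, among them *Csf1r*, *Cd68* and the MHC class II gene *H2-Ab1*, summed to 25049 to 32192 CPM in WT, 32332 to 48147 CPM in IL10RAKO and 30398 to 39039 CPM in DKO mice, and none was at 0. Of these 9 genes, 2 were higher and 0 lower in IL10RAKO than in WT mice. In DKO mice 1 was higher and 2 were lower than in WT. Markers of other cells were present as well. The 6 B and plasma cell markers summed to 521 to 1825 CPM in WT, 395 to 1079 CPM in IL10RAKO and 482 to 1879 CPM in DKO mice, with every marker read in every library and 0 of 6 past the test in any comparison (at an unadjusted p under 0.05, 0 as well). The T and NK cell markers summed to 45.7 to 108, 35.6 to 96.0 and 46.1 to 144 CPM in the same order, and 1 of 8 tested passed, *Nkg7*, higher in DKO than in WT mice. All 6 fibroblast markers were lower in both knockouts (294 to 577 CPM in WT against 15 to 67.0 CPM in the knockout libraries). In both knockouts 2 of 4 monocyte markers and 4 of 5 tested neutrophil markers were higher than in WT. The monocyte markers summed to 120 to 182 CPM in WT, 367 to 1045 CPM in IL10RAKO and 430 to 698 CPM in DKO mice, and the neutrophil markers to 75.2 to 122, 137 to 304 and 156 to 263 CPM, with *S100a9* at 0 reads in all 4 WT libraries. Dendritic cell markers summed to 309 to 1402 CPM in WT, 1540 to 1924 CPM in IL10RAKO and 1023 to 1821 CPM in DKO mice, with 2 of 6 higher in IL10RAKO mice and 1 higher and 1 lower in DKO mice. Of 2 tested mast cell markers 1 was higher in both knockouts (sums of 10.6 to 35 CPM in WT and 70.3 to 120 CPM in the knockout libraries). Of 4 endothelial markers 1 was lower in DKO mice (76.2 to 192 CPM in WT, 66.6 to 109 CPM in IL10RAKO and 52.1 to 86.5 CPM in DKO mice). None of 7 tested epithelial markers passed with edgeR (3 at an unadjusted p under 0.05 for IL10RAKO and 0 for DKO against WT), but their sum was 1298 CPM in WT replicate 3 and 3278 CPM in WT replicate 4, against 42.0 to 243 CPM in the other tested libraries. What these cells contribute to the levels below was not tested.

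The programme was transcribed in all 4 genotypes at a modest level. All 48 members passed the filter on low counts and had at least 5 reads in every one of the 12 libraries. The S-phase genes had at least 41 reads each. Per kilobase of exon and averaged over the 3 tested genotypes, the highest levels were those of *Hmgb2*, a chromatin protein that is not restricted to dividing cells (58.0 CPM per kb), of the replication clamp *Pcna* (32.5 CPM per kb) and of the helicase subunits *Mcm3*, *Mcm4* and *Mcm6* (25.4, 21.3 and 21.0 CPM per kb). The lowest were the kinetochore genes *Cenpf* (0.28 CPM per kb) and *Cenpe* (0.94 CPM per kb) and the transcription factor *Foxm1* (0.65 CPM per kb). *Cdk1*, the kinase that drives entry into mitosis, stood at 1.92 CPM per kb, and *Mki67*, which encodes the proliferation marker Ki-67, at 4.25 CPM per kb.

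**Figure D1:**
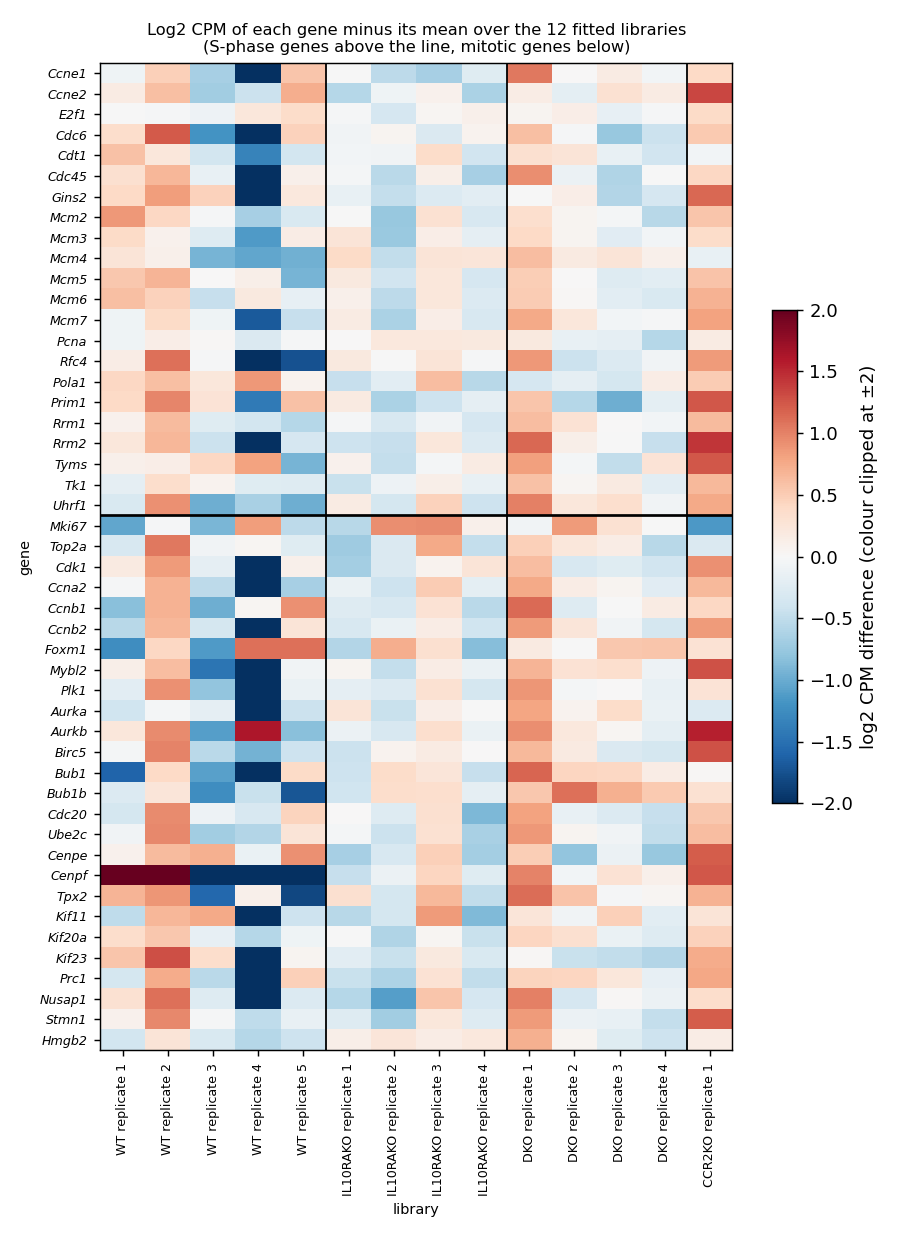
Log2 CPM of the 48 members (rows) in the 14 libraries (columns), each minus the mean of that gene over the 12 tested libraries; red is higher and blue lower, with the colour clipped at 2 log2 units in either direction. DKO replicate 1, WT replicate 2 and the CCR2KO library are red over most rows, and the 16 members at 0 reads in WT replicate 4 are among its dark blue cells.

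The summed levels spread widely within each genotype. The S-phase genes summed to 976, 1039, 664 and 659 CPM in WT replicates 1, 2, 3 and 5 (835 ± 202, SD, n = 4). They summed to 831, 602, 892 and 704 CPM in IL10RAKO mice (757 ± 130, SD, n = 4) and to 1120, 824, 731 and 690 CPM in DKO mice (841 ± 194, SD, n = 4). The ranges of the 3 genotypes overlapped throughout. The mitotic genes summed to 457, 787, 403 and 433 CPM in the same WT mice (520 ± 180, SD, n = 4), to 467, 526, 660 and 481 CPM in IL10RAKO mice (533 ± 88.1, SD, n = 4) and to 815, 598, 520 and 435 CPM in DKO mice (592 ± 163, SD, n = 4). Here too the spread within a genotype was wider than the distance between the means. A large part of the mitotic sum was *Hmgb2*, which is not restricted to dividing cells. It averaged 150 CPM in WT, 192 CPM in IL10RAKO and 181 CPM in DKO mice. Between the WT and IL10RAKO means, *Hmgb2* alone differed by more than the whole mitotic sum. In bulk RNA, fewer cells of a type and less RNA per cell cannot be told apart, so a sum does not say how many macrophages were dividing.

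**Figure D2:**
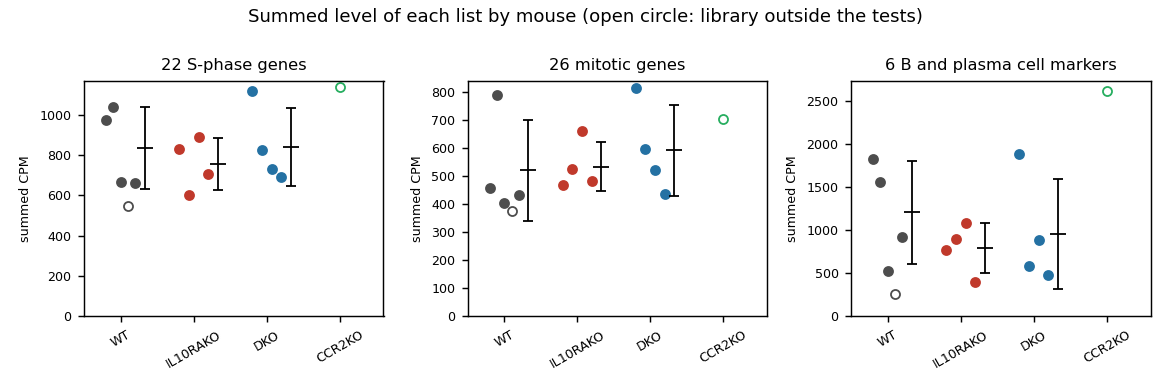
Summed CPM of the 22 S-phase genes, the 26 mitotic genes and the 6 B and plasma cell markers in each library (filled circles, tested libraries; open circles, libraries given as values only; bars, mean ± SD of the 4 tested libraries). The genotypes overlap in every panel, and the libraries highest for the S-phase genes are also the highest for the B and plasma cell markers.

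WT replicate 2 and DKO replicate 1 stood at the top of most members. Among the 12 tested libraries, WT replicate 2 held the highest value of 13 of the 26 mitotic genes and 6 of the 22 S-phase genes. DKO replicate 1 held the highest value of 8 mitotic and 9 S-phase genes. Among all 14 libraries, the 4 with the highest S-phase sum (CCR2KO, DKO replicate 1, WT replicate 2 and WT replicate 1) were also the 4 with the highest sum of B and plasma cell markers, at 2611, 1879, 1560 and 1825 CPM, and WT replicate 4 was lowest for both. By mitotic sum, DKO replicate 1, WT replicate 2 and CCR2KO ranked 1, 2 and 3, but WT replicate 1 ranked 10 (457 CPM). DKO replicate 1 was also the highest for the T and NK cell markers, at 144 CPM. The part of these cells in the proliferation genes was not tested.

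The members rose and fell together across libraries. After each gene's genotype mean was taken away from its log2 CPM, the median Pearson correlation over the 12 libraries was 0.59 for pairs of mitotic genes, 0.47 for pairs of S-phase genes and 0.50 for pairs across the groups. These values are a description, since all pairs share the libraries. The gene closest to the mean of the mitotic group was *Plk1*, which encodes a kinase acting at the spindle and centrosome (r = 0.97), followed by the cyclin gene *Ccna2* (r = 0.93). The genes closest to the S-phase mean were those of the ribonucleotide reductase subunits, *Rrm1* (r = 0.92) and *Rrm2* (r = 0.91), and *Mcm6* (r = 0.91). *Mki67* followed its own group less closely (r = 0.41), as did *Foxm1* (r = 0.27), and *E2f1* was nearly flat across libraries (SD of 0.18 log2 units, r = 0.06). *Cenpf* varied most, with an SD of 1.54 log2 units.

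Outside the members, genes most like the S-phase mean over the same 12 libraries included *Taf9* (r = 0.97), the chromokinesin gene *Kif22* (r = 0.96), the histone gene *H2afx* (r = 0.96), *Nsmce2*, *Tmem241*, *Cdc42ep3*, *Sigirr*, *Cdca8* and *Tcf19* (r from 0.94 to 0.93 from *Nsmce2* on). Those most like the mitotic mean were *Fasl* (r = 0.92), the mitotic entry gene *Cdca3* (r = 0.91), *Serpinb6b*, *Cd96*, *Phc1*, *Taf9*, *6330415g19rik*, *Btk*, *Melk* and *Cdca8* (r from 0.90 to 0.89 from *Serpinb6b* on). *Fasl* and *Cd96* are known from T and NK cells and *Btk* from B and myeloid cells.

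Loss of *Il10ra* was compared with WT first. Of the 22 S-phase genes 1 was lower and 0 were higher in IL10RAKO macrophages, and of the 26 mitotic genes 1 was higher and 1 lower. Over all tested genes 15.8% passed (8.7% higher and 7.1% lower), beside 3 of 48 members. With library totals in place of TMM 4.96% of all genes were higher and 15.9% lower, and the median over all genes lay at -0.385 log2 units. The median log2 fold change was -0.24 for the S-phase and -0.26 for the mitotic genes, against -0.07 for all genes, and 38 of the 48 members had a negative estimate. Members move together across libraries, so these signs are not 48 independent observations. The fits that left out 1 library gave medians from -0.37 to -0.07 for the S-phase and from -0.42 to 0.04 for the mitotic genes, and without WT replicate 2 they were -0.07 and 0.04. At an unadjusted p under 0.05 stood 5 of 48 members, against 29.1% of all genes, and no member lay with all IL10RAKO libraries above WT, against 9.45% of all genes. For 21 of 48 members the 95% interval lay within 1 log2 unit of no change. Comparisons with WT share the same 4 WT libraries.

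The S-phase gene that passed was *Gins2* (chromosome 8, 120578633 to 120589304, GRCm38, minus strand), a subunit of the GINS complex that activates the helicase together with CDC45. It measured 11.1, 15.2, 11.7 and 9.72 CPM in WT mice, 7.59, 6.04, 6.98 and 7.27 CPM in IL10RAKO mice and 8.34, 9.21, 5.55 and 6.62 CPM in DKO mice. Both knockout groups lay below every tested WT library. The log2 fold change was -0.78 ± 0.24 (SE) for IL10RAKO against WT (adjusted p = 0.0417, edgeR) and -0.68 ± 0.24 for DKO against WT (adjusted p = 0.0636, edgeR). Groups did not overlap, with the knockout below, for 8.78% of all tested genes in the first comparison and for 11% in the second. *Gins2* shares 2758 of its 4097 exon bases with *Gse1* on the opposite strand, and the strand setting of the counting is not given in the sources used here, so reads of these genes may not be separated. The call for IL10RAKO was lost in 9 of the 12 fits that left out 1 library (adjusted p up to 0.121). The DKO difference was called by DESeq2 (adjusted p = 0.0389). It was also called by edgeR with library totals (adjusted p = 0.0119) or a filter of 10 reads in every library (adjusted p = 0.0489). WT replicate 4, at 1.98 CPM, lay below every knockout library. With it in the fit the difference was -0.51 for IL10RAKO and -0.42 for DKO (adjusted p = 0.510 and 0.597, edgeR).

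*Prim1*, the catalytic primase subunit, had the lowest S-phase estimate in this comparison but did not pass (-0.82 ± 0.33, adjusted p = 0.110, edgeR). It measured 11.2, 16.6, 10.2 and 12.7 CPM in WT, 9.60, 5.42, 6.32 and 7.40 CPM in IL10RAKO and 12.5, 5.66, 4.22 and 7.32 CPM in DKO mice. IL10RAKO libraries lay below all tested WT libraries and DKO replicate 1 lay among them. At the other end stood *Mcm4* (0.41 ± 0.28, adjusted p = 0.364, edgeR) and *Pcna* (0.14 ± 0.16, adjusted p = 0.609, edgeR). *Mcm4* was 86.9, 78.3, 38.1 and 37.3 CPM in WT, 94.4, 51.9, 86.9 and 86.0 CPM in IL10RAKO and 111, 82.2, 86.7 and 77.9 CPM in DKO mice, with WT replicates 3 and 5 far below the other libraries. *Pcna* was among the steadiest members, at 72.6, 84.9, 78.8 and 76.2 CPM in WT, 77.5, 89.7, 89.5 and 88.2 CPM in IL10RAKO and 88.6, 69.9, 68.0 and 52.1 CPM in DKO mice. *Mcm2*, a helicase subunit often used as a marker of licensed cells, was 102, 74.4, 55.0 and 45.1 CPM in WT, 55.3, 32.8, 68.9 and 44.6 CPM in IL10RAKO and 70.6, 57.7, 54.5 and 38.1 CPM in DKO mice, and did not pass against WT in either knockout (-0.46 ± 0.28, adjusted p = 0.302, and -0.32 ± 0.28, adjusted p = 0.461, edgeR).

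**Figure D3:**
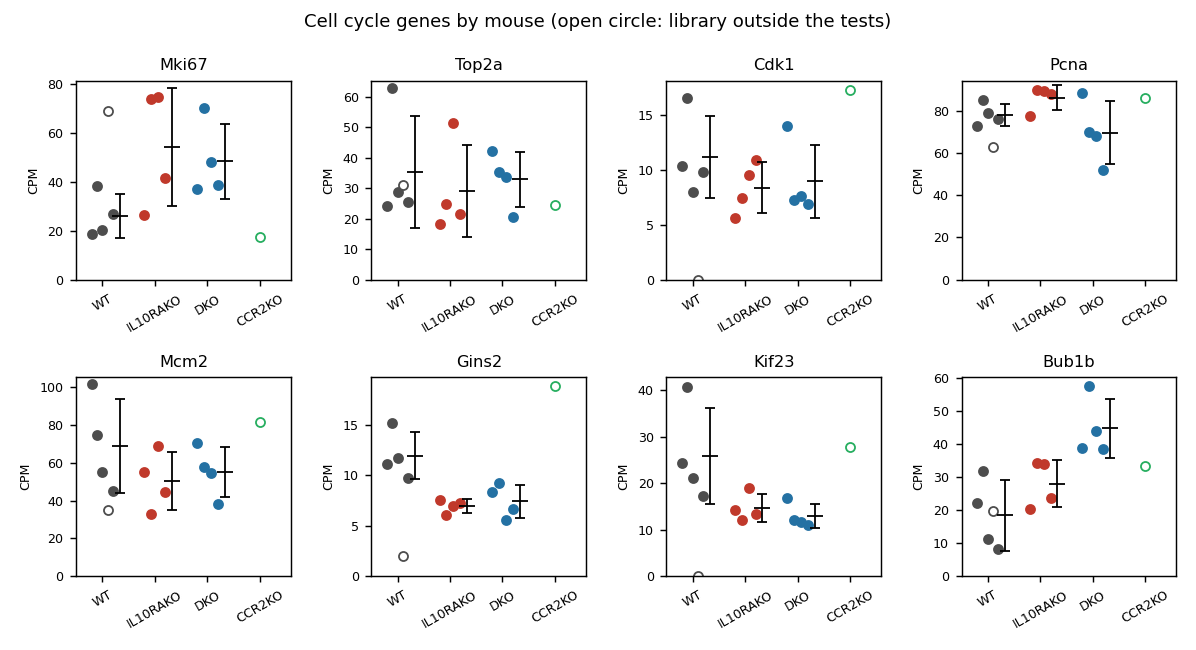
CPM of 8 members in each library by genotype (filled circles, tested libraries; open circles, libraries given as values only; bars, mean ± SD of the 4 tested libraries). Among tested libraries *Gins2* lies below WT in both knockouts and *Kif23* in DKO mice, while WT replicate 4 lies below all knockout libraries for both (1.98 and 0 CPM), *Bub1b* is highest in DKO mice (38.4 to 57.6 CPM), and *Mki67* runs from 26.4 to 74.5 CPM within IL10RAKO mice alone.

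*Mki67* was the only member higher in IL10RAKO than in WT macrophages by the test. It measured 18.7, 38.1, 20.4 and 26.8 CPM in WT replicates 1, 2, 3 and 5, 26.4, 73.7, 74.5 and 41.5 CPM in IL10RAKO mice and 36.8, 70.0, 47.9 and 38.5 CPM in DKO mice. IL10RAKO replicate 1 lay within the WT range, so the groups overlapped. The log2 fold change was 1.06 ± 0.33 for IL10RAKO against WT (adjusted p = 0.0450, edgeR) and 0.90 ± 0.33 for DKO against WT (adjusted p = 0.0785, edgeR). The DKO difference was called by DESeq2 (adjusted p = 0.0328) and by edgeR with only the 2 genotypes compared (0.0444), without IL10RAKO replicate 1 (0.0437) or without WT replicate 2 (0.0418). WT replicate 4, which was not in the fit, measured 68.8 CPM, within the IL10RAKO range, and with it the difference was 0.65 for IL10RAKO and 0.49 for DKO (adjusted p = 0.326 and 0.469, edgeR). The call was also lost with library totals in place of TMM (0.74, adjusted p = 0.131, edgeR) and in 8 of the 12 fits that left out 1 library, among them those without IL10RAKO replicate 2, 3 or 4. *Top2a* and *Cdk1*, which like *Mki67* are used as markers of cycling cells, did not pass in either knockout. *Top2a*, which encodes the topoisomerase that untangles chromosomes, was 24.2, 62.7, 28.6 and 25.5 CPM in WT, 18.3, 24.7, 51.3 and 21.6 CPM in IL10RAKO and 42.0, 35.4, 33.5 and 20.5 CPM in DKO mice (-0.28 ± 0.37 for IL10RAKO and -0.10 ± 0.37 for DKO against WT, adjusted p = 0.662 and 0.883, edgeR). *Cdk1* was 10.3, 16.5, 7.99 and 9.79 CPM in WT, 5.64, 7.41, 9.56 and 10.9 CPM in IL10RAKO and 14.0, 7.22, 7.66 and 6.92 CPM in DKO mice (-0.41 ± 0.32 and -0.32 ± 0.32, adjusted p = 0.422 and 0.533, edgeR).

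*Kif23*, a kinesin of the central spindle that is needed for cytokinesis, was the mitotic gene that fell in both knockouts. It measured 24.3, 40.7, 21.1 and 17.2 CPM in WT, 14.3, 12.1, 18.9 and 13.3 CPM in IL10RAKO and 16.8, 12.1, 11.7 and 10.9 CPM in DKO mice. DKO libraries lay below every tested WT library, and IL10RAKO replicate 3 lay above the lowest of them. The log2 fold change was -0.82 ± 0.26 for IL10RAKO (adjusted p = 0.0493, edgeR) and -0.999 ± 0.26 for DKO (adjusted p = 0.0168, edgeR) against WT. WT replicate 4 had 0 reads on *Kif23*, and with it in the fit neither call held (adjusted p = 0.760 and 0.647, edgeR). Leaving out 1 library ended the call in 9 of 12 fits for IL10RAKO and in 4 of 12 for DKO (those without WT replicate 2 or DKO replicate 2, 3 or 4). Without WT replicate 2, the highest library, the difference was -0.50 and -0.69, respectively. The fibroblast markers, which were lower in every knockout library, are given above, and their part in this gene was not tested. *Prc1*, which bundles the microtubules of the central spindle, did not pass (-0.45 ± 0.31 for IL10RAKO and 0.08 ± 0.31 for DKO, adjusted p = 0.370 and 0.892, edgeR).

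The lowest mitotic estimates for IL10RAKO against WT were those of the kinetochore genes, and neither passed. *Cenpf* (-1.15 ± 0.83, adjusted p = 0.389, edgeR) was 11.8, 12.1, 0.54 and 0.33 CPM in WT mice, against 2.09, 2.68, 3.94 and 2.44 CPM in IL10RAKO and 5.91, 2.80, 3.58 and 3.11 CPM in DKO mice. WT libraries thus sat on both sides of all knockout libraries. *Cenpe* (-0.84 ± 0.36, adjusted p = 0.139, edgeR) was 7.88, 11.5, 12.1 and 14.1 CPM in WT, 4.59, 5.92, 10.4 and 4.56 CPM in IL10RAKO and 10.4, 4.23, 6.82 and 4.30 CPM in DKO mice, for which the estimate was -0.82 ± 0.36 (adjusted p = 0.135, edgeR).

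DKO macrophages were compared with WT next. None of the 22 S-phase genes passed (0 higher and 0 lower, with 2 at an unadjusted p under 0.05 and 1 called lower by DESeq2), and of the 26 mitotic genes 1 was higher and 1 lower. Of all tested genes 18.5% passed (9.23% higher and 9.22% lower). With library totals 5.69% were higher and 16.3% lower, and the median over all genes lay at -0.317 log2 units. The median log2 fold change was -0.06 for the S-phase and 0.12 for the mitotic genes, against -0.06 for all genes. Neither sign was stable when 1 library was left out, with medians from -0.19 to 0.04 and from -0.14 to 0.38. The mitotic median was 0.38 without WT replicate 2 and -0.14 without DKO replicate 1, and it was also below 0 without WT replicate 1 (-0.04) or 3 (-0.05) and with library totals (-0.15). The S-phase median was above 0 without WT replicate 1 (0.02) or 2 (0.04) or DKO replicate 3 (0.04). At an unadjusted p under 0.05 stood 7 of 48 members, against 31.3% of all genes. For 27 of 48 members the 95% interval lay within 1 log2 unit of no change.

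*Bub1b* was the member that rose. It encodes BubR1, a kinase-like protein of the spindle assembly checkpoint, which delays anaphase until chromosomes are attached. It measured 22.2, 31.7, 11.3 and 8.12 CPM in WT, 20.4, 34.1, 33.8 and 23.7 CPM in IL10RAKO and 38.9, 57.6, 43.9 and 38.4 CPM in DKO mice. Every DKO library lay above every other tested library, which was seen with DKO above for 11.2% of all tested genes against WT and for 1.13% against IL10RAKO. The log2 fold change was 1.29 ± 0.35 against WT (adjusted p = 0.0193, edgeR), 0.61 ± 0.35 for IL10RAKO against WT (adjusted p = 0.265, edgeR) and 0.67 ± 0.35 for DKO against IL10RAKO (adjusted p = 1.00, edgeR). The call against WT held with WT replicate 4 in the fit (1.27, adjusted p = 0.0220, edgeR) and in 10 of the 12 fits that left out 1 library, the exceptions being those without DKO replicate 2 or WT replicate 3, and it missed the threshold with library totals (adjusted p = 0.0525, edgeR). Other genes of the checkpoint and of anaphase did not pass in this comparison. *Bub1*, its partner at the kinetochore, was 1.81, 7.62, 2.65 and 7.52 CPM in WT, 4.31, 7.47, 6.83 and 4.16 CPM in IL10RAKO and 13.0, 7.78, 7.73 and 6.43 CPM in DKO mice (0.84 ± 0.45, adjusted p = 0.217, edgeR). *Cdc20*, which activates the anaphase-promoting complex, was -0.25 ± 0.35 (adjusted p = 0.674, edgeR).

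Among the S-phase genes, the highest estimates for DKO against WT were *Mcm4* (0.57 ± 0.28, adjusted p = 0.181, edgeR) and *Uhrf1*, which maintains DNA methylation behind the fork (0.54 ± 0.39, adjusted p = 0.368, edgeR). *Uhrf1* was 25.4, 58.9, 15.8 and 15.8 CPM in WT, 34.9, 24.4, 42.8 and 23.5 CPM in IL10RAKO and 62.7, 36.5, 39.4 and 29.9 CPM in DKO mice, with WT replicate 2 among the highest. *Prim1* was the lowest (-0.77 ± 0.33, adjusted p = 0.121, edgeR).

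**Figure D4:**
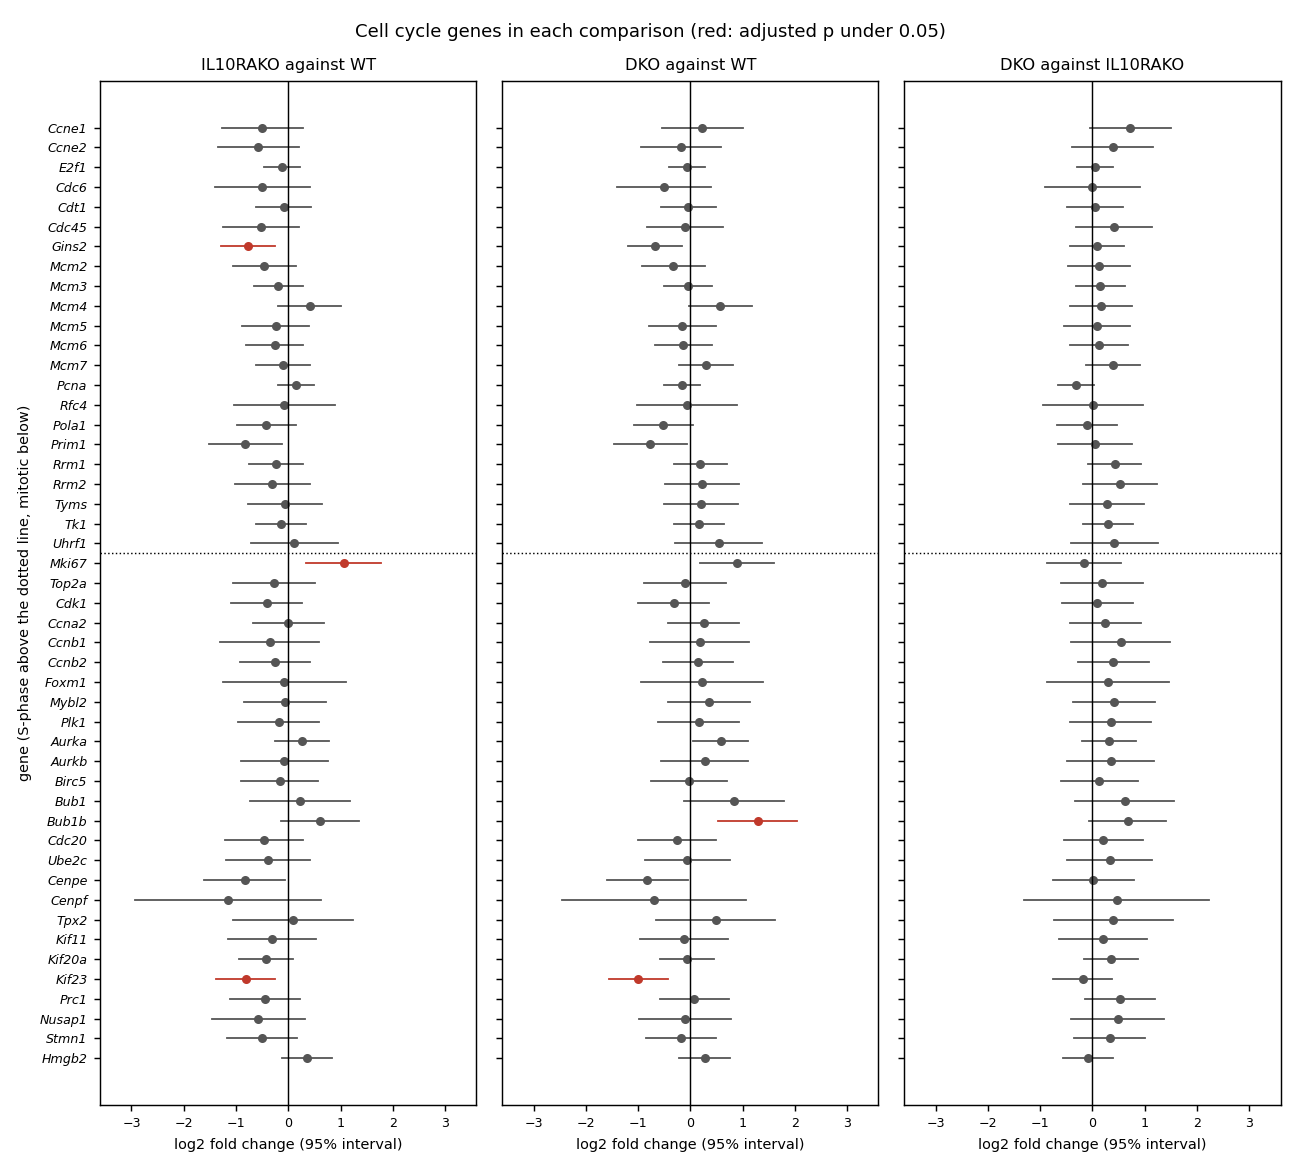
Log2 fold change with its 95% interval for each of the 48 members in the 3 comparisons, with S-phase genes above and mitotic genes below the dotted line and members past the test in red. Passing members are *Gins2*, *Mki67* and *Kif23* for IL10RAKO against WT and *Bub1b* and *Kif23* for DKO against WT, and 42 of 48 estimates lie to the right of 0 for DKO against IL10RAKO with none passing.

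The effect of losing *Ccr2* on top of *Il10ra* was the question of the study, and DKO mice were therefore compared with IL10RAKO mice. None of the 48 members passed with edgeR (0 at an unadjusted p under 0.05), and none passed with DESeq2 or under any other alternative. Few genes of any kind did, since 0.0457% of all tested genes passed (0.0152% higher and 0.0305% lower) and 2.95% were at an unadjusted p under 0.05. The estimates leaned to one side, with 42 of 48 members higher in DKO mice and medians of 0.14 for the S-phase and 0.33 for the mitotic genes, against -0.01 for all genes. Since members move together across libraries, these are not 48 independent observations. Without DKO replicate 1, the tested library with the highest sums of both roles, the medians were 0.02 and 0.08. Without IL10RAKO replicate 3 they were 0.26 and 0.52, and without IL10RAKO replicate 2 the S-phase median was 0.03. For 28 of 48 members the 95% interval lay within 1 log2 unit of no change.

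The highest S-phase estimates for DKO against IL10RAKO were *Ccne1*, the cyclin of the G1 to S transition (0.73, 95% interval -0.05 to 1.5), and *Rrm2* (0.53, -0.18 to 1.24). *Ccne1* was 5.29, 3.67, 3.3 and 4.49 CPM in IL10RAKO and 11.3, 5.35, 5.97 and 5.14 CPM in DKO mice, beside 5.01, 7.44, 3.31 and 7.92 CPM in WT mice. *Rrm2* was 18.7, 18.2, 29.4 and 20.7 CPM in IL10RAKO and 55.5, 27, 25 and 18.2 CPM in DKO mice, beside 29.5, 39.8, 18.5 and 19.7 CPM in WT mice. For both genes DKO replicate 1 was the highest of the 12 libraries. The lowest were *Pcna* (-0.31, -0.65 to 0.04) and *Pola1*, the catalytic subunit of polymerase alpha (-0.10, -0.67 to 0.48), which was 8.70, 10.4, 18.5 and 8.19 CPM in IL10RAKO and 9.5, 10.6, 9.42 and 13.3 CPM in DKO mice, beside 16.1, 18.3, 14.2 and 12.6 CPM in WT mice. Of the mitotic genes, *Bub1b* (0.67, -0.07 to 1.41) and *Bub1* (0.62, -0.33 to 1.57) were highest and *Kif23* (-0.18, -0.75 to 0.38) and *Mki67* (-0.16, -0.87 to 0.54) lowest.

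Several brakes of the cell cycle differed between WT and knockout macrophages. Of 24 tested genes on a list of 25 CDK inhibitors, arrest genes and related factors, 5 were higher and 1 was lower in IL10RAKO than in WT mice, and 6 were higher and 1 lower in DKO mice. Over all genes 8.7% were higher and 7.1% lower in the first comparison, and 9.23% and 9.22% in the second. None passed between DKO and IL10RAKO (1 at an unadjusted p under 0.05). The median over the list was near 0 in each comparison (-0.01, 0.15 and 0.03).

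*Cdkn1a*, which encodes p21, measured 701, 460, 404 and 544 CPM in WT, 1967, 1902, 1156 and 2053 CPM in IL10RAKO and 1791, 1799, 1265 and 1274 CPM in DKO mice, and no knockout library overlapped with WT. The log2 fold change was 1.75 ± 0.23 for IL10RAKO and 1.54 ± 0.23 for DKO against WT (adjusted p = 0.000127 and 0.000287, edgeR). *Gadd45a*, a growth arrest gene of the DNA damage response, was 56.7, 45.3, 32.4 and 25 CPM in WT, 96.0, 202, 77.2 and 239 CPM in IL10RAKO and 201, 203, 154 and 97.8 CPM in DKO mice (1.95 ± 0.37 and 2.04 ± 0.37, adjusted p = 0.00247 and 0.00157, edgeR). Every knockout library again lay above every tested WT library. Over all tested genes, IL10RAKO lay wholly above WT for 9.45% and wholly below for 8.78%. For DKO these shares were 11.2% and 11%.

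Smaller rises were seen in both knockouts for *Btg1*, an anti-proliferative cofactor (1.00 ± 0.20 and 0.85 ± 0.20, adjusted p = 0.00382 and 0.00927, edgeR), for *Ccng2*, an atypical cyclin linked to arrest (0.78 ± 0.16 and 0.76 ± 0.16, adjusted p = 0.00402 and 0.00444, edgeR), and for *Cdkn1b*, which encodes p27 (1.20 ± 0.31 and 0.95 ± 0.31, adjusted p = 0.0169 and 0.0458, edgeR). *E2f4*, the repressive E2F of the DREAM complex, was higher in DKO mice (0.50 ± 0.14, adjusted p = 0.0242, edgeR), while in IL10RAKO mice the estimate was 0.18 ± 0.14. *Wee1*, the kinase that holds CDK1 inactive before mitosis, fell in both. It was 35.2, 22.3, 23.4 and 26.3 CPM in WT, 6.75, 12.4, 16 and 8.92 CPM in IL10RAKO and 10.0, 10.8, 7.94 and 5.98 CPM in DKO mice (-1.28 ± 0.28 and -1.62 ± 0.28, adjusted p = 0.00632 and 0.00114, edgeR). The brakes therefore did not move in 1 direction, and monocyte and neutrophil markers were higher in the same knockout libraries, whose part was not tested. The calls of *Cdkn1a*, *Gadd45a*, *Btg1* and *Wee1* held in both comparisons in every alternative fit, including all 12 that left out 1 library. Those of *Ccng2* did not hold with WT replicate 4 in the fit (adjusted p = 0.0566 and 0.0617, edgeR), and that of *Cdkn1b* in DKO mice was lost in 8 of the 12 fits that left out 1 library.

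**Figure D5:**
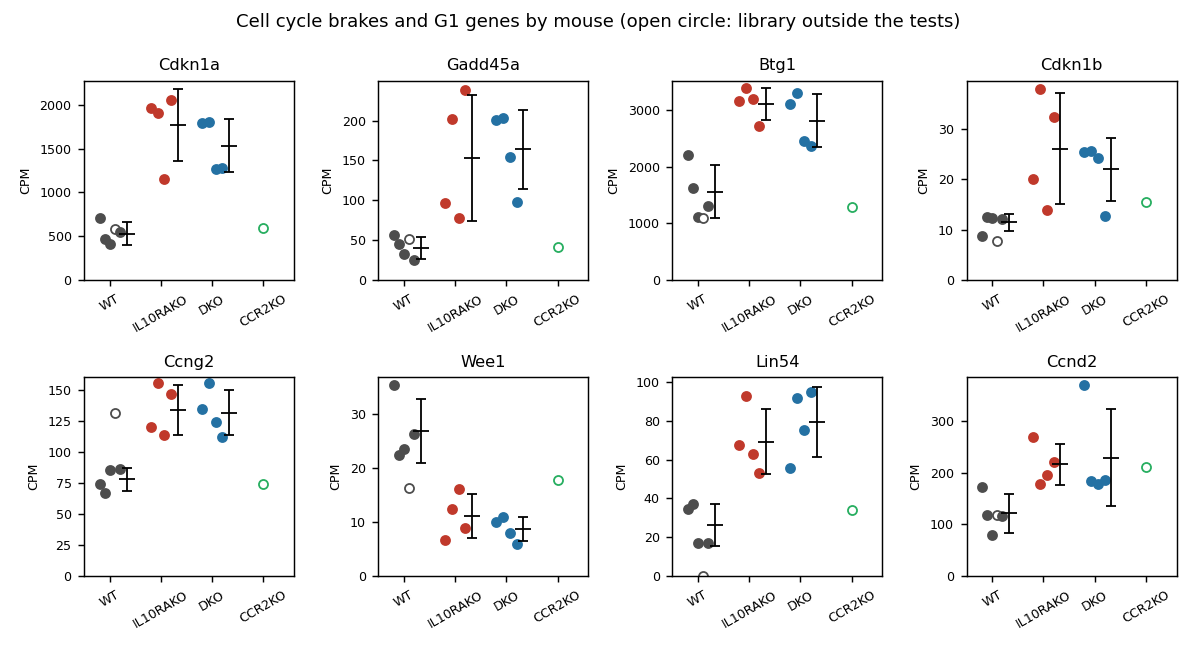
CPM of 6 brake genes, of the MuvB subunit *Lin54* and of the G1 cyclin gene *Ccnd2* in each library by genotype (filled circles, tested libraries; open circles, libraries given as values only; bars, mean ± SD of the 4 tested libraries). *Cdkn1a*, *Gadd45a*, *Wee1*, *Lin54* and *Ccnd2* are among the genes that separate the tested WT libraries from all knockout libraries without overlap. The CCR2KO library lies with the WT libraries for *Cdkn1a* (586 CPM) and *Gadd45a* (40.6 CPM). For *Ccnd2* (212 CPM) it lies above every WT library (79.8 to 172 CPM) and within the knockout range (178 to 371 CPM).

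Of 11 genes of G1 entry, 1 was lower in IL10RAKO mice, and 2 were higher and 1 lower in DKO mice, beside 15.8% and 18.5% of all genes called in either direction. *Cdk6*, a G1 kinase, was 19.7, 37.5, 41.0 and 58.9 CPM in WT, 10.5, 16.1, 26.2 and 18.0 CPM in IL10RAKO and 15.2, 9.90, 14.4 and 14.7 CPM in DKO mice (-1.15 ± 0.32 and -1.53 ± 0.32, adjusted p = 0.0239 and 0.00412, edgeR). IL10RAKO replicate 3 lay above the lowest WT library, and every DKO library lay below all tested WT libraries. Its partner *Ccnd2* (cyclin D2) was 172, 119, 79.8 and 116 CPM in WT, 271, 179, 195 and 221 CPM in IL10RAKO and 371, 184, 178 and 186 CPM in DKO mice (0.83 ± 0.27 and 0.92 ± 0.27, adjusted p = 0.0505 and 0.0294, edgeR). Without DKO replicate 1 the difference for DKO was 0.59 (adjusted p = 0.101, edgeR), and the call was also lost without WT replicate 2, 3 or 5. *E2f2*, an activating E2F, was 0.73 ± 0.24 for DKO (adjusted p = 0.0488, edgeR), a call that 9 of the 12 fits without 1 library did not keep. Of the 7 MuvB and DREAM genes, only *Lin54* passed. It was 34.4, 37.2, 17.1 and 16.8 CPM in WT, 67.6, 92.7, 63.1 and 53.3 CPM in IL10RAKO and 55.8, 92.0, 75.3 and 94.9 CPM in DKO mice (1.39 ± 0.29 and 1.59 ± 0.29, adjusted p = 0.00410 and 0.00142, edgeR). WT replicate 4 had 0 reads on this gene, and with it in the fit the adjusted p was 0.154 and 0.105.

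The wider replication and mitosis genes were measured as a check on the members. Of 42 other replication genes none passed for IL10RAKO against WT with edgeR (6 at an unadjusted p under 0.05), and 3 were higher in DKO than in WT mice. These were *Fen1*, which trims Okazaki fragments (0.90 ± 0.25, adjusted p = 0.0222, edgeR), the clamp loader gene *Rfc5* (0.70 ± 0.18, adjusted p = 0.0128, edgeR) and the polymerase delta gene *Pold3* (0.47 ± 0.14, adjusted p = 0.0348, edgeR). WT replicate 4, which was not in the fit, measured 88.8 CPM for *Pold3*, above every DKO library (45.5 to 52.4 CPM). For *Fen1* and *Rfc5* that library lay below every DKO library (16.6 and 21.2 CPM). Of 55 other mitotic genes 1 was higher and 2 were lower in IL10RAKO mice, and 1 was higher in DKO mice. Over all tested genes 15.8% passed for IL10RAKO and 18.5% for DKO against WT. At an unadjusted p under 0.05 these shares were 29.1% and 31.3%. *Lmnb1*, the lamin B1 gene, rose in both knockouts, from 40.2, 58.0, 48.7 and 41.7 CPM in WT to 104, 209, 130 and 107 CPM in IL10RAKO and 115, 109, 107 and 89.8 CPM in DKO mice (1.55 ± 0.22 and 1.16 ± 0.22, adjusted p = 0.000266 and 0.00196, edgeR). The cytokinesis genes *Cit* (-2.01 ± 0.42, adjusted p = 0.00484) and *Ect2* (-1.13 ± 0.27, adjusted p = 0.0101) fell in IL10RAKO mice, from means of 7.65 and 9.88 CPM in WT to 1.89 and 4.51 CPM, and did not pass in DKO mice (-1.10 ± 0.41 and -0.44 ± 0.26, adjusted p = 0.0789 and 0.281, edgeR). Neither call held with WT replicate 4 in the fit. Medians over the lists were -0.16 and -0.33 for IL10RAKO and 0.04 and -0.03 for DKO against WT.

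Genes known to set self-renewal of macrophages were also examined. *Maf*, whose product represses self-renewal of macrophages, was 34.8, 36.3, 40.0 and 46.9 CPM in WT, 9.46, 7.66, 15.8 and 11.0 CPM in IL10RAKO and 5.74, 6.72, 11.7 and 12.3 CPM in DKO mice, and fell in both (-1.85 ± 0.28 and -2.11 ± 0.28, adjusted p = 0.000437 and 0.000142, edgeR). *Klf2*, a factor of quiescence, fell as well (-0.95 ± 0.23 and -1.17 ± 0.23, adjusted p = 0.0108 and 0.00242, edgeR). The receptor genes of growth-promoting cytokines *Csf2rb* (1.28 ± 0.17 and 1.38 ± 0.18, adjusted p = 0.000188 and 8.70e-05, edgeR) and *Il4ra* (0.75 ± 0.15 and 0.62 ± 0.15, adjusted p = 0.00419 and 0.0114, edgeR) rose in both, and *Csf2ra* passed for DKO mice (0.54 ± 0.17, adjusted p = 0.0372, edgeR). *Il34*, a ligand of the CSF1 receptor, passed as lower in IL10RAKO mice (adjusted p = 0.0448, edgeR), but it was at 0 reads in 3 of 4 IL10RAKO libraries and in WT replicate 1. Of the 10 genes on this list, 2 were higher and 3 lower in IL10RAKO and 3 higher and 2 lower in DKO mice, beside the same shares of all genes (8.7% higher and 7.1% lower, 9.23% and 9.22%), and none passed between the knockouts (0 at an unadjusted p under 0.05).

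The CCR2KO library has no replicate and gives values only. Its S-phase genes summed to 1138 CPM, above the 547 to 1039 CPM of the 5 WT libraries, and its mitotic genes to 704 CPM, within the 375 to 787 CPM of WT. Of the 48 members 19 were above all 5 WT libraries, against 17.4% of all tested genes. *Mki67* was the 1 member below them (17.3 CPM), and the share of all tested genes below was not computed. *Gins2* was 18.9 CPM, *Kif23* 27.8 CPM and *Bub1b* 33.2 CPM. This library also had the highest sum of B and plasma cell markers (2611 CPM) and a fibroblast sum of 681 CPM, and their part was not tested.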

How the data were processed

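RNA of sorted Ly6C- colonic macrophages was made into cDNA with SmartSeq v4 reagents and sequenced in paired ends on 14 libraries. The submitters' processing notes name bcl2fastq 2.20, STAR 2.5.1b, edgeR 3.34.0 and the build mm10. Neither the gene annotation nor the strandedness of counting nor the treatment of multiply mapped reads is given in the sources used here. The deposited read counts per gene were used as the authors made them, with no normalisation, for 24982 genes. A second deposited table holds the authors' edgeR pseudo-counts, a score on a normalised count scale, for 13338 genes in 12 libraries, which served only to define an alternative gene set.

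Genotypes were taken from the labels, and WT replicate 4 was left out of the test because the pseudo-count table does not hold it. Counts were filtered with filterByExpr (minimum count 10, 13136 genes), scaled by TMM and fitted with edgeR 4.0.16 (quasi-likelihood, 12 libraries, genotype as the only term) under R 4.3.3. A gene was called at an adjusted p under 0.05. CPM were computed from the counts and TMM factors, and correlations used log2 CPM (prior count 2). No pair of libraries of a genotype agreed within sampling noise (chi-square per degree of freedom at least 30.0). Exon lengths and positions come from GENCODE vM21 (GRCm38). The fitting procedure was tested on simulated data.

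Alternatives were DESeq2 1.42.0, other scalings and filters, 13 libraries, pairs of genotypes alone, other dispersion settings and leaving out each library. The fit without DKO replicate 1 and WT replicate 1 was chosen after seeing the data. The genes, lists and tests were chosen with earlier results of these data known. Genes named are *Mki67*, *Top2a*, *Cdk1*, *Pcna*, *Mcm2*, every member past the test, the 2 highest and 2 lowest estimates of each role in each comparison, genes of the other lists past the test, and the 10 genes most like each role, of which 1 is not reported here. *Prc1* and *Cdc20* were named after their values were seen, as were the genes given with level or correlation extremes. Intervals cover the spread between libraries, and the 3-read floor covers counting error only.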

Additional observations from a re-analysis of the deposited data

Results flagged for a closer look

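In 5 of 150 groups of 4 libraries (a gene, or the summed level of a role, within a genotype), 1 library stood far from the rest, with its gap to the nearest library over the group's range above Dixon's 95% critical value on log2 CPM. Chance alone flags about 5% of such groups. *Hmgb2* was high in WT replicate 2 (203 CPM against 128 to 137 CPM, ratio 0.853). *Cdk1* (14.0 CPM against 6.92 to 7.66 CPM, ratio 0.856) and *Plk1* (15 CPM against 7.32 to 8.15 CPM, ratio 0.849) were high in DKO replicate 1. *Mcm4* was low in IL10RAKO replicate 2 (51.9 CPM against 86.0 to 94.4 CPM, ratio 0.844), and *Pcna* was low in IL10RAKO replicate 1 (77.5 CPM against 88.2 to 89.7 CPM, ratio 0.880).

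The CCR2KO library, which enters no comparison, had a summed S-phase level of 1138 CPM, above all 5 WT libraries. In it 19 members lay above all 5 WT libraries, of which 11 of 22 were S-phase and 8 of 26 mitotic genes, beside 17.4% of all tested genes.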

How the results depend on the processing

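No member was called between DKO and IL10RAKO under any of the 23 alternatives, and no called member reversed. Of the 48 members, 42 were never called for IL10RAKO against WT and 41 for DKO against WT. No paired analysis was possible because the replicate numbers only follow the order of the samples and the genotypes are different mice.

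Counts of called members moved as follows. With library totals, IL10RAKO against WT gave 2 lower S-phase and 0 higher mitotic genes, the S-phase median fell to -0.55, and the log2 ratio of the mean summed S-phase level was -0.45 in place of -0.14. DKO against WT then gave 2 lower S-phase and 0 higher mitotic genes. DESeq2 gave 1 lower S-phase and 2 higher mitotic genes for DKO against WT. Without a filter, IL10RAKO against WT gave 0 lower S-phase and 0 lower mitotic genes. A filter of 10 reads in every library gave 1 lower S-phase gene for DKO against WT. With the genes of the pseudo-count table, 0 mitotic genes were lower in IL10RAKO mice. With WT replicate 4 in the fit (13 libraries), IL10RAKO against WT gave 0 lower S-phase, 0 higher and 0 lower mitotic genes, and DKO against WT 0 lower mitotic genes. With only the 2 genotypes compared, these were 0, 0 and 0 for IL10RAKO, and 2 mitotic genes were higher in DKO mice. Without DKO replicate 1 and WT replicate 1, counts were 0, 0 and 0 for IL10RAKO and 1 lower S-phase and 2 lower mitotic genes for DKO, and the mitotic median for DKO against WT went from 0.12 to -0.25. Leaving out 1 library gave 0 to 1 lower S-phase, 0 to 1 higher mitotic and 0 to 2 lower mitotic genes for IL10RAKO, and 0 to 1 lower and 0 to 1 higher S-phase, 0 to 2 higher and 0 to 1 lower mitotic genes for DKO. The cause of these moves was not tested. With 4 libraries a genotype, the median standard error was 0.33 log2 units. A call took a difference of several standard errors, so differences of single members well above 0.33 log2 units could also go unresolved.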
